A study of Mus musculus with 27 samples.

Results

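Pi16, Dpp4, Cd55, Sema3c, Clec3b, Gsn, Cd34 and Mfap5, 8 genes used as markers of adventitial fibroblasts and fibro-adipogenic progenitors, were followed across 27 RNA-seq libraries of sorted mouse cells. They were taken by symbol from the normalized count table, where all 8 were found among 30153 entries, and all 8 were among the 18442 genes that passed a filter on low values. The libraries came from Prx1-CreER/Ai14/Rag1 mice of both sexes, 8 to 12 weeks old, in which the Prx1 promoter drives a tamoxifen-inducible Cre, the Ai14 allele then marks Prx1 cells and their progeny with tdTomato, and every group shared the Rag1 mutant background. Cells of femur and tibia were taken 3 days after the last tamoxifen injection from the surrounding muscle (digested for 60 minutes), the periosteum (digested for 20 minutes) and the flushed bone marrow. CD45- tdTomato+ cells were sorted by CD105 and CD200. Cells without CD105 were called P1 if they carried CD200 and P2 if they did not, and P3 cells carried CD105 with any level of CD200. With 3 tissues this gave 9 groups of 3 libraries. The authors give 3 mice per group. The labels do not say which animal gave which library, or whether groups shared animals, so the libraries were treated as independent. The p-values measure the spread between these samples, which may in part be technical.

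Fibroblasts that lie in the adventitia of vessels and in fascia carry Pi16 and Dpp4 and occur in many organs. In skeletal muscle they belong to the wider pool of fibro-adipogenic progenitors, the non-myogenic stromal cells that support regeneration and can turn into fat, scar or ectopic bone. The members act at different places: Pi16, Dpp4, Cd55 and Cd34 at the cell surface, Sema3c, Clec3b and Mfap5 as secreted or matrix proteins, and Gsn mainly inside the cell.

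Values are the deposited normalized counts, called levels here, and sums over all entries ranged from 8639660 to 26232100 per library. Replicates of a group correlated with a Pearson r of 0.862 to 0.955 for muscle, of 0.631 to 0.827 for periosteum and of 0.767 to 0.935 for bone marrow (log2 values across genes). Against the sort, mean Cd200 was 3064 in P1 and 23.1 in P2 of periosteum and 6725 in P1 and 49.97 in P2 of bone marrow. In muscle P1 and P2 overlapped, since P1 ranged from 1025 to 3274 and P2 held 10.3, 1107 and 69.5. Eng, which codes for CD105, averaged 5404 in muscle P3 and 309 in muscle P1. Ptprc, which codes for CD45, the antigen sorted against, was nonetheless present in bone marrow. Its means there were 172.6 in P1, 610.4 in P2 and 232.0 in P3. A further entry, named only for the transgenes, averaged 34676 in bone marrow P1, 1237 in P2 and 5324 in P3. In the muscle and periosteum groups the means of that entry ran from 9718 (periosteum P3) to 23101 (muscle P2). Prrx1, the gene whose promoter drives the Cre, had its lowest group mean for bone marrow P2 (110.1). Its P1 means were 2879 for periosteum, 1969 for bone marrow and 1260.4 for muscle. The P2 libraries held RNA of other cell types. The summed level of 10 myofibre genes was 2512160 to 3065600 in muscle P2 and 27021 to 59355 in muscle P1, and 9 erythroid genes summed to between 3449520 and 9542270 for periosteum P2 and between 8057560 and 12811900 for bone marrow P2. The P3 libraries held endothelial RNA, with 12 genes summing to 57981 to 83145 in muscle P3 and 7199 to 17299 in muscle P1. Eng is among these 12 genes, so part of the endothelial sum of P3 follows from the sort itself. In such bulk libraries, fewer cells of a type and less RNA per cell cannot be told apart. The levels are not scaled to a common total, as their sums show, and how far the other RNA moved the members' levels was not tested.

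The stretches of 150 bases before a RefSeq start (GRCm38.p6) are shown for Dpp4 and Gsn, the pair of members with the lowest correlation, and for Cd55, the member that differed least between muscle and bone marrow. None of the 3 stretches holds an annotated exon base. They are written 5′ to 3′ on the gene's strand, with capitals marking matches on either strand to 6 motifs: the TATA element with the letters TATAAA, the CAAT element with the letters CCAAT, the GC box with the letters GGGCGG, the AP-1 element with the letters TGANTCA, the TEAD element with the letters GGAATG, and the GATA core with the letters GATAAG. No matches overlapped.
Dpp4, chr2:62412232-62412381, minus strand: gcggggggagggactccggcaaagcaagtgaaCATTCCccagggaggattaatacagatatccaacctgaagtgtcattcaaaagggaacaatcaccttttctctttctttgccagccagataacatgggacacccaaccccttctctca
Cd55, chr1:130462745-130462894, minus strand: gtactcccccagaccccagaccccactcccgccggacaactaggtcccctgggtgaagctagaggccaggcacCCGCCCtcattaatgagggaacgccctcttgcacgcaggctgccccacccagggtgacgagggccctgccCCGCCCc
Gsn, chr2:35282230-35282379, plus strand: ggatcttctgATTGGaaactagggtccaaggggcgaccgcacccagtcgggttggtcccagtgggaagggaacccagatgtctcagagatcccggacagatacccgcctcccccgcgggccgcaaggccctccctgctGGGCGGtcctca
The Dpp4 stretch held 1 TEAD element and 49.3% G and C. That of Cd55 held 2 GC boxes and 69.3% G and C, and that of Gsn, 1 of 3 starts listed for the gene, held a CAAT element, a GC box and 65.3% G and C. Over all 32851 promoter stretches of this length, the median was 54% G and C. Of them, 7.57% held the TATA element, 24.5% the CAAT element, 28.6% the GC box, 4.24% the AP-1 element, 7.59% the TEAD element and 3.75% the GATA core. A match is a description of the letters and was not tested as a binding site.

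Among the surface proteins, Pi16 (peptidase inhibitor 16, chr17:29317680-29330593, plus strand, GRCm38) was highest in muscle P1. Its levels there were 36859, 33536 and 18827, a mean of 29741 ± 9597 (SD, n = 3). In muscle P2 they were 3462, 2139 and 3949, and in muscle P3 4045, 6073 and 4035. The lowest P1 library of muscle was thus above all libraries of the other 8 groups. Periosteum P1 followed with 9986, 2353 and 2241, so that its first library was far above the other two and the group overlapped muscle P3. Periosteum P3 was tight, at 1469, 1424 and 1568, while periosteum P2 spread from 2489.8 in the first library through 1037 in the third to 4.03 in the second. In bone marrow Pi16 was 7.21, 60.7 and 33.6 in P1, 67.9, 162 and 191 in P2, and 35.1, 38.4 and 14.7 in P3. Every bone marrow library lay under every muscle library, and of the periosteum libraries only the one at 4.03 was not above all of them.

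Dpp4 (CD26, a surface protease that clips dipeptides from chemokines such as Cxcl12, chr2:62330073-62412231, minus strand) had its 2 highest means in muscle P2 and muscle P1, which overlapped. Muscle P1 held 3655, 4106 and 2769.7, muscle P2 1362, 5902 and 3806, and muscle P3 660.3, 771 and 483. The CD105+ cells of muscle were below both CD105- groups with no overlap. Periosteum libraries scattered over 3 orders of magnitude. They held 219.8, 47.2 and 562 in P1, 3581, 10.3 and 29.3 in P2, and 6.81, 774 and 3.14 in P3. A single library therefore set the mean of periosteum P2 (1207 ± 2056, SD, n = 3) and another that of periosteum P3 (261 ± 444). In bone marrow, Dpp4 was listed at 0 in 2 of 3 P1 libraries and at 29.4 in the other, against 256, 78.3 and 387 in P2 and 81.5, 39.3 and 132 in P3. In the order of the 9 means, each group of Dpp4 overlapped the next, except that bone marrow P1 lay below bone marrow P3.

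Cd55 (decay-accelerating factor, which shields cells from complement, chr1:130439027-130462744, minus strand) had the smallest difference of the members between muscle and bone marrow. It held 4748, 5008 and 2584 in muscle P1, 1967, 1369 and 1415 in muscle P2, and 1104, 1544 and 1137 in muscle P3. Periosteum had 1822, 670.1 and 1326 in P1, 5622, 1078 and 909 in P2, and 677, 922 and 468 in P3, so the single highest value of Cd55 in the series was the first library of periosteum P2. Bone marrow P1 was lowest of the 9 groups and apart from the rest, at 82.8, 109.9 and 185. Bone marrow P2 (729.6, 986 and 485) and P3 (759, 775 and 833) lay within the range of periosteum. A neighbouring copy, Cd55b (listed as Daf2, chr1:130388537-130423009, minus strand), reached at most 46.7 in any library. Its longest transcript matched that of Cd55 at 91.6% identity over 1157 aligned positions, with a shared run of up to 198 bases, so reads could be split between the copies.

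Cd34 (a sialomucin carried by fibroblast progenitors, and also by endothelium and blood progenitors, chr1:194938819-194961279, plus strand) was highest in P1 and P3 of muscle. It held 20339.8, 19284 and 14578 in muscle P1, 17542, 17097 and 15885 in muscle P3, and 11097, 7408 and 10117 in muscle P2. The P1 and P3 libraries overlapped and all 6 were above the 3 of P2. In periosteum the first library of P1 (10289.6) and of P2 (15386) stood above the others of those groups, at 2917 and 2588 in P1 and 2834 and 2979 in P2, while P3 held 11751, 9878 and 6665. Bone marrow ran from 35.8, 63.9 and 47.2 in P1 to 387, 318 and 117 in P3 and 533, 285 and 717 in P2. Endothelial RNA moved with P3 in all 3 tissues, and the summed level of 10 haematopoietic progenitor genes was 1683 to 2599 in bone marrow P1, 1704 to 3672 in P2 and 2009.8 to 2997 in P3; the part of either in the Cd34 levels was not tested.

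**Figure D1:**
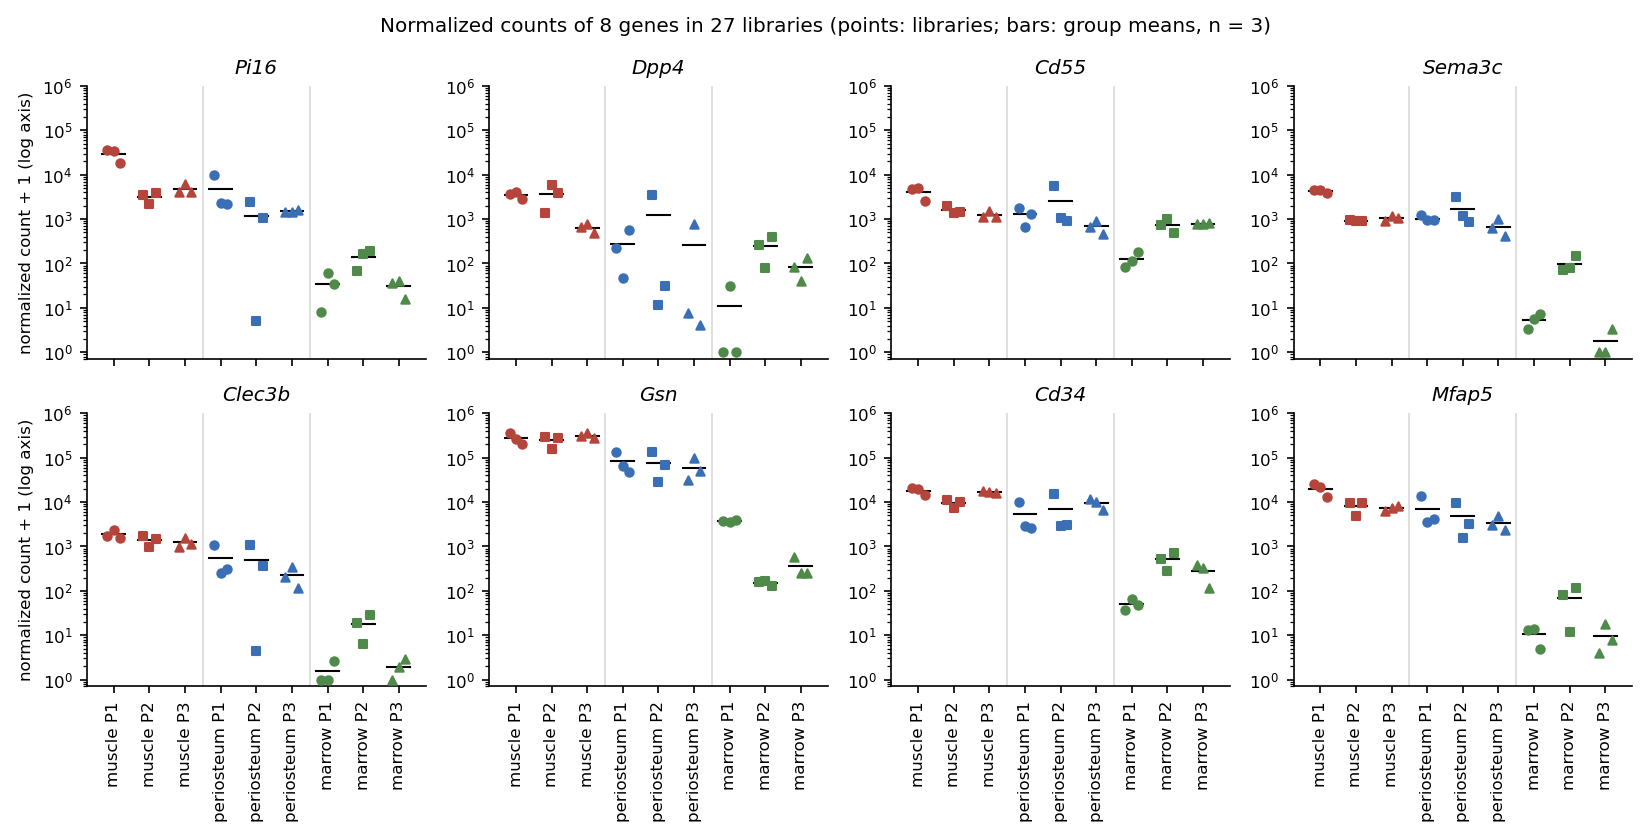
Each panel plots 1 gene, with the normalized count plus 1 on a log axis against the 9 groups. Points are single libraries and bars are group means (n = 3). By means, the 3 bone marrow groups rank lowest for 7 of the genes, Cd55 being the exception, Pi16 and Sema3c stand out in muscle P1, and single libraries of periosteum P2 lie far from their replicates.

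Of the secreted proteins, Sema3c (a semaphorin that signals through neuropilins and plexins, chr5:17574281-17730268, plus strand) was highest in muscle P1, with little spread. Its levels were 4422, 4585 and 3902 there, a mean of 4303 ± 357 (SD, n = 3). Muscle P2 held 948, 915 and 909, and muscle P3 899, 1187 and 1064. P1 was thus 4.66-fold above P2 and 4.10-fold above P3 by means, with no overlap. Periosteum was close to the latter pair, at 1206, 938 and 933 in P1, 3141, 1154 and 859 in P2, and 633, 989 and 409 in P3. Bone marrow was near 0 in P1 (2.3, 4.56 and 6.31) and in P3 (listed at 0 in 2 libraries and at 2.41 in the other one), and reached 70.6, 77.9 and 145 in P2.

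Clec3b (tetranectin, a lectin that binds plasminogen, chr9:123150946-123157432, plus strand) differed little among the subpopulations of muscle. P1 held 1746, 2414 and 1521, P2 1737, 971 and 1441, and P3 957, 1590.0 and 1152, and all 3 groups overlapped. In periosteum it was 1107, 257 and 306 in P1, 1095, 3.48 and 359 in P2, and 208, 346 and 116 in P3. The second library of periosteum P2, at 3.48, was the same library in which Pi16 was at 4.03. In bone marrow Clec3b was at or near 0 in P1 (0, 0 and 1.69) and P3 (0, 0.939 and 1.84), and at 17.6, 5.49 and 28.1 in P2, so its fitted fold changes against bone marrow depend on the pseudocount.

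Mfap5 (microfibril-associated glycoprotein 2, which sits on fibrillin fibres of elastic matrix, chr6:122505845-122529290, plus strand) had its highest mean in muscle P1, at 25323, 21485 and 12906. Muscle P2 (9705, 4759 and 9805) and P3 (6456, 7227 and 8213) overlapped each other and lay below all 3. In periosteum it held 13632, 3584 and 4133 in P1, 9437, 1541 and 3288 in P2, and 3022, 4781 and 2362 in P3, and these groups overlapped. Bone marrow held 11.9, 12.7 and 3.86 in P1, 80.7, 10.9 and 116 in P2, and 3, 16.6 and 6.64 in P3, below every library of the other tissues.

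Gsn (gelsolin, which severs and caps actin filaments and also has a plasma form, chr2:35256380-35307892, plus strand) had the highest mean level per kilobase of exon of the members in every group of muscle and periosteum and in bone marrow P1, and not in bone marrow P2 and P3. Its subpopulations overlapped in muscle and in periosteum. Muscle held 352683, 259965 and 203656 in P1, 294922, 160928 and 282619 in P2, and 307543, 367169 and 276159 in P3, with all groups overlapping. Periosteum held 137918, 63889 and 46867 in P1, 134334, 28498 and 69919.8 in P2, and 31595, 97981 and 50248 in P3, which also overlapped and lay below every muscle library. Only in bone marrow were the subpopulations of Gsn apart, at 3824, 3509 and 4049 in P1, 578, 249.5 and 249 in P3, and 159, 165 and 131 in P2. Per kilobase of annotated exon in muscle P1, the mean level of Gsn was 86189.8, followed by 5546 for Mfap5, 4673 for Pi16, 2478 for Cd34, 1909 for Clec3b, 848 for Cd55, 603 for Sema3c and 555 for Dpp4. Antisense genes share 222 exon bases with Pi16, 232 with Dpp4, 102 with Cd55 and 148 with Cd34, and the strand setting of the counting was not given, so reads of the partners cannot be told apart.

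The first comparison asked how the tissues differed when P1, P2 and P3 weighed equally, using limma on log2(level + 1) with Benjamini-Hochberg adjustment over all genes tested, and calling a gene at an adjusted p below 0.05 with a log2 fold change beyond 1.5 either way. Muscle was above bone marrow for all 8 members, against 21.7% of all genes called in either direction and 10.9% called higher. Shares of all genes given below count calls in either direction unless a direction is named. The differences were 9.36 (SE 0.439, adjusted p = 1.87e-13) for Mfap5, 8.88 (0.261, 2.61e-17) for Gsn, 8.76 (0.727, 1.68e-09) for Clec3b and 7.48 (0.356, 2.17e-13) for Sema3c on the log2 scale. Those of Pi16 (7.35, SE 0.76), Cd34 (6.31, SE 0.325) and Dpp4 (5.71, SE 1.02) were smaller, and that of Cd55 (2.28, SE 0.317, adjusted p = 5.44e-06) was the smallest. Their median was 7.42, beside -0.10 over all genes tested. These calls held under every alternative tried, including without P2.

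Periosteum was above bone marrow for 6 of 8 members, against 20.8% of all genes called in either direction and 4.01% called higher. Mfap5 led again with 8.05 (SE 0.439, adjusted p = 3.32e-12), followed by Gsn (6.79, SE 0.261), Sema3c (6.77, SE 0.356), Clec3b (6.05, SE 0.727), Cd34 (5.03, SE 0.325) and Pi16 (4.59, SE 0.76). Cd55 differed by 1.46 (SE 0.317, adjusted p = 0.00158), just inside the fold limit, and Dpp4 by 1.20 (SE 1.02, adjusted p = 0.409). The median over members was 5.54, beside -0.69 over all genes tested.

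Muscle was above periosteum for 4 of 8 members, against 20.4% of all genes called, of which 17.2% were higher and 3.19% lower in muscle as shares of all genes. Dpp4 rose by 4.51 (SE 1.02, adjusted p = 0.00243), Pi16 by 2.76 (SE 0.76, adjusted p = 0.0102), Clec3b by 2.70 (SE 0.727, adjusted p = 0.00876) and Gsn by 2.09 (SE 0.261, adjusted p = 3.54e-06) on the log2 scale. Cd34 (1.28, SE 0.325, adjusted p = 0.00581) and Mfap5 (1.32, SE 0.439, adjusted p = 0.031) passed the p threshold and not the fold threshold, and Cd55 (0.83, SE 0.317) and Sema3c (0.71, SE 0.356) passed neither. The median over members was 1.70, beside 0.56 over all genes tested. From P1 and P3 only, an alternative chosen after seeing the data, Pi16 (2.28, adjusted p = 0.117) and Clec3b (2.31, adjusted p = 0.0951) were no longer called, which left 2 members.

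**Figure D2:**
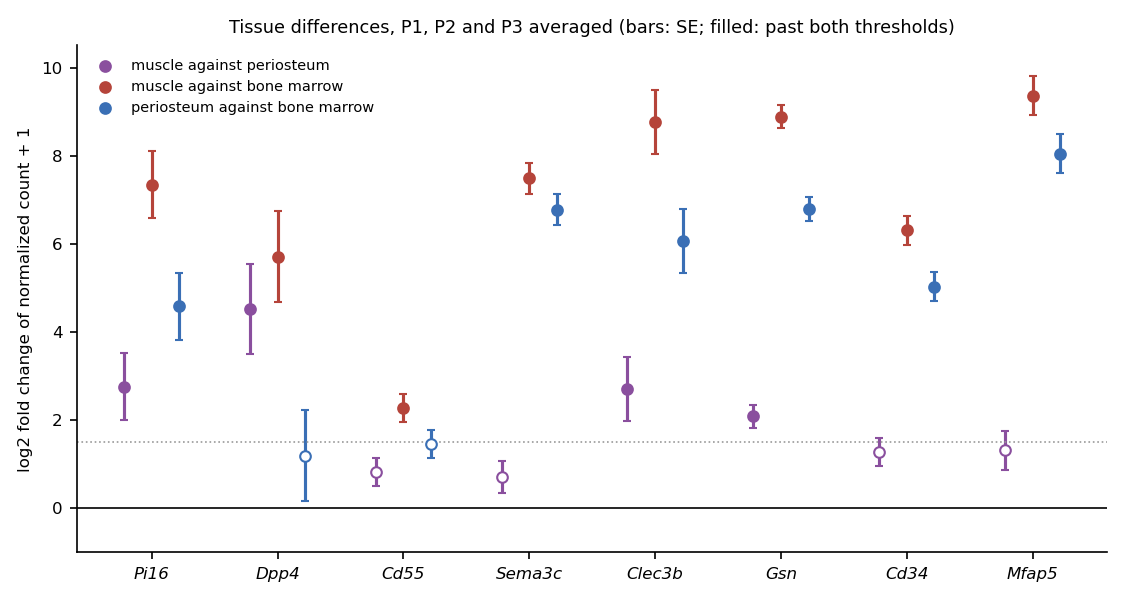
Log2 fold change of the normalized count plus 1 for each gene (horizontal axis) in the 3 tissue comparisons, with bars for the SE and the fold limit of 1.5 dotted. Filled points passed both thresholds, as all 8 did for muscle against bone marrow, 6 for periosteum against bone marrow and 4 for muscle against periosteum.

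Marker genes of other cell types were counted between muscle and periosteum, beside 17.2% of all genes called higher in muscle and 3.19% called lower. Muscle was above periosteum for 10 of 12 endothelial, 8 of 9 satellite cell, 10 of 10 myofibre and 9 of 10 mural genes, and for 4 of 7 Schwann genes with 1 lower. It was above periosteum for 1 of 12 leukocyte genes, and for 2 of 10 haematopoietic progenitor genes with 1 lower. Muscle was below periosteum for 9 of 9 erythroid, 8 of 10 osteoblast and 10 of 10 cartilage genes, while 1 of 9 tenocyte genes was higher and 1 lower. Their part in the members' differences was not tested.

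Within P1, all 8 members were higher in muscle than in bone marrow, against 8.34% of all genes called and 5.4% called higher. The log2 differences ran from 5.04 (SE 0.548) for Cd55 to 10.98 (SE 0.761) for Mfap5, and by means Pi16 was 879-fold and Cd34 369-fold higher. The fitted values of genes near 0 in bone marrow depend on the pseudocount. Between periosteum P1 and bone marrow P1, 7 were higher, against 4.87% of all genes called and 1.91% called higher. Dpp4 was not called (5.86, SE 1.77, adjusted p = 0.0547). It was called without the second library of periosteum P1 or bone marrow P1, the first or second of periosteum P2, or the second or the third of periosteum P3 (adjusted p from 0.0166 to 0.0455). Summed osteoblast levels were 3128070 to 5248390 in bone marrow P1, 760000.0 to 1534440 in periosteum P1 and 87944 to 150113 in muscle P1, the reverse order of the members, and their part was not tested. Between muscle P1 and periosteum P1, only Cd34 (2.07, SE 0.563, adjusted p = 0.0305) and Gsn (1.83, SE 0.453, adjusted p = 0.0169) were called, against 4.9% of all genes. Neither call held without the first or the second muscle P1 library or the second or the third periosteum P1 library, with adjusted p up to 0.113 for Cd34 and up to 0.0916 for Gsn; that of Cd34 also went without the third muscle P1 library (adjusted p = 0.0666). Both calls were also lost without a filter (adjusted p of 0.0785 for Cd34 and 0.0641 for Gsn), without a trend (0.0771 and 0.0785) and with the pair of groups fitted alone (0.153 and 0.126). Sema3c was just outside (2.07, SE 0.616, adjusted p = 0.0502), and passed without any of 10 libraries, 9 of them P2 or P3 libraries of periosteum and bone marrow and the other the first of bone marrow P1 (adjusted p from 0.0298 to 0.0494). Over all 37 alternatives Sema3c was called in 18, with adjusted p down to 0.0134. Cd55 (1.75, SE 0.548, adjusted p = 0.0664) passed without any library of periosteum P2 (adjusted p from 0.015 to 0.0482), and Pi16 (2.93, SE 1.32, adjusted p = 0.239) without the second one (adjusted p = 0.00734). Over all 37 alternatives Cd55 was called in 4, with adjusted p down to 0.0107.

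Within P3, muscle was above bone marrow for 6 members, against 10.4% of all genes called (6.14% higher). Periosteum was above bone marrow for the same 6, against 6.94% called (2.95% higher). These were Pi16, Sema3c, Clec3b, Gsn, Cd34 and Mfap5, with differences of 6.10 to 9.89 and 5.23 to 8.72 on the log2 scale. Cd55 was close to level between the tissues in P3, at 0.66 (SE 0.548, adjusted p = 0.563) for muscle and -0.25 (SE 0.548, adjusted p = 0.868) for periosteum against bone marrow. Between muscle P3 and periosteum P3 only Gsn was called (2.55, SE 0.453, adjusted p = 0.00208), against 3.5% of all genes. Dpp4 (4.42, SE 1.77, adjusted p = 0.167) was called there without the second library of periosteum P3 (6.79, adjusted p = 0.038). Within P2, where other RNA weighs most, muscle was above bone marrow for 6 members, against 40.1% of all genes called (14.1% higher). Periosteum was above bone marrow for 4, against 20% called (4.65% higher). Muscle was above periosteum for 4, against 28% called (17.6% higher). The last 4 were Pi16 (3.71), Dpp4 (4.87), Clec3b (3.48) and Gsn (1.88). Without the second library of periosteum P2 none of them was called, with values of 0.94, 3.25, 1.10 and 1.29. Without any one library of muscle P2, Pi16, Dpp4 and Clec3b were not called either (adjusted p from 0.0506 to 0.122), nor was Dpp4 without the third library of periosteum P2 (adjusted p = 0.135), and none was called when those 2 groups were fitted alone (adjusted p from 0.15 to 0.41). Against bone marrow P2, Clec3b of periosteum P2 (2.99, SE 1.26, adjusted p = 0.094) was called without the second periosteum P2 library (5.37, adjusted p = 8.74e-05), and Dpp4 of muscle P2 (3.97, SE 1.77, adjusted p = 0.0756) without the first library of periosteum P2 or the second of periosteum P3 (adjusted p of 0.0319 and 0.0366).

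The next question was how the subpopulations of 1 tissue differed. In muscle, P1 was above P2 for Sema3c (2.21, SE 0.616, adjusted p = 0.0227), the only member called, against 8.21% of all genes. That call was lost without any single one of the 6 libraries compared, with adjusted p from 0.0587 to 0.0834. Pi16 was higher in P1 by 3.21 (SE 1.32, adjusted p = 0.148), or 9.34-fold by means, with no overlap between the groups. Its SE was set by all 9 groups together, and the periosteum P2 library with Pi16 at 4.03 counted in it: without that library the same difference had an adjusted p of 0.0017, and with the muscle groups fitted alone 0.00527. Myofibre RNA moved with muscle P2, and its part was not tested.

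No member was called between muscle P3 and muscle P1, against 0.466% of all genes, and 2 members had an unadjusted p below 0.05. The differences were -2.62 (SE 1.32) for Pi16, -2.46 (SE 1.77) for Dpp4, -2.04 (SE 0.616) for Sema3c, -1.66 (SE 0.548) for Cd55 and -1.40 (SE 0.761) for Mfap5, all lower in P3. With the muscle libraries of this pair fitted alone, 4 of these passed both thresholds, namely Pi16 (adjusted p = 0.0134), Dpp4 (0.00906), Cd55 (0.0394) and Sema3c (0.00654). That fit called 766 of all genes, against 86 in the fit of all groups. The other members differed less between P3 and P1, at 0.25 (SE 0.453) for Gsn, -0.09 (SE 0.563) for Cd34 and -0.62 (SE 1.26) for Clec3b. Between muscle P3 and P2 no member was called either, against 11.2% of all genes, and no member had an unadjusted p below 0.05; fitted alone, Dpp4 passed (-2.32, adjusted p = 0.0313), as did 3810 of all genes, against 2057. The 3 pairs share their groups.

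In periosteum, Pi16 was above P2 in P1 (3.99, SE 1.32, adjusted p = 0.0344), the only member called, against 19.1% of all genes. The call rested on single libraries, with 1.22 (adjusted p = 0.263) without the second library of P2 and 3.29 (adjusted p = 0.138) without the first library of P1. None was called in P3 against P1, against 4.18% of all genes, or in P3 against P2, against 17.1%, and 0 and 1 members had an unadjusted p below 0.05. The direction of Pi16 and Dpp4 in the latter pair turned with 1 library. It went from 2.66 to -0.11 for Pi16 without the second library of P2, and from -1.87 to 0.66 for Dpp4 without the first. Clec3b in P1 against P2 went from 1.88 to -0.50 without the second library of P2 and to 3.47 (adjusted p = 0.0428) without the first. Pi16 in P3 against P2 was called without the first library of P2 (4.36, adjusted p = 0.0172). Erythroid RNA was 3449520 to 9542270 in P2 against 15308 to 47662 in P1, and its part was not tested.

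In bone marrow, P1 was below P2 for 6 members and above it for Gsn, against 34% of all genes. The 6 were Dpp4 (-5.997, SE 1.77, adjusted p = 0.0114), Sema3c (-4.19, SE 0.616, adjusted p = 1.6e-05), Clec3b (-3.45, SE 1.26, adjusted p = 0.0358), Cd34 (-3.30, SE 0.563, adjusted p = 9.94e-05), Cd55 (-2.55, SE 0.548, adjusted p = 0.00104) and Mfap5 (-2.35, SE 0.761, adjusted p = 0.0194). Gsn was 25.0-fold higher in P1 by means (4.64, SE 0.453, adjusted p = 4.68e-08). The calls of Sema3c, Cd34, Cd55 and Gsn held without any single library. That of Dpp4 was lost without the first or the third P1 library (-5.18 and adjusted p up to 0.0554). Clec3b lost its call without any of 4 libraries, the first or second of P1 or the first or the third of P2 (adjusted p up to 0.129), and Mfap5 lost it without any of 3, the third of P1 or the first or the third of P2 (adjusted p up to 0.128). Clec3b was also no longer called with quantile normalization (-0.43, adjusted p = 0.773), a pseudocount of 5 (-1.85, adjusted p = 0.179) or the same total per library (-3.08, adjusted p = 0.0771), nor was Mfap5 with quantile normalization (-1.39, adjusted p = 0.241) or the groups fitted alone (adjusted p = 0.121). Pi16 (-2.32, SE 1.32, adjusted p = 0.179) was called without the second library of periosteum P2 (adjusted p = 0.00729). Sums of 12 leukocyte genes were 33631 to 198163 in P2 and 19417 to 66827 in P1, and erythroid RNA was 8057560 to 12811900 against 120786 to 496961; their part was not tested.

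Bone marrow P3 was above P1 for Cd55 (2.72, SE 0.548, adjusted p = 0.00208) and Cd34 (2.33, SE 0.563, adjusted p = 0.00977) and below it for Gsn (-3.52, SE 0.453, adjusted p = 1.5e-05), against 6.6% of all genes. The call of Cd34 was lost without the first P1 library or the first or second P3 library (adjusted p up to 0.061). Sema3c came to -1.77 (SE 0.616, adjusted p = 0.0888) and was called without the third P3 library (-2.36, adjusted p = 0.0322). P3 was below P2 for Sema3c (-5.96, SE 0.616, adjusted p = 7.46e-07) and Mfap5 (-2.57, SE 0.761, adjusted p = 0.019), against 20% of all genes. Mfap5 lost its call without the first or the third library of either group (adjusted p up to 0.135). Over all 37 alternatives Mfap5 lost that call in 7, with adjusted p up to 0.171. Pi16 (-2.20, SE 1.32, adjusted p = 0.252) was called without the second library of periosteum P2 (adjusted p = 0.0164), and Clec3b (-3.11, SE 1.26, adjusted p = 0.0806) without the first or second one (adjusted p of 0.041 and 0.00553). Endothelial sums were 4971 to 15046 in bone marrow P3 and 403 to 651 in P1, and their part in the rise of Cd34 and Cd55 was not tested. These sums include Eng, the gene of the sorted CD105, at 774 to 1740 in P3.

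Whether the step from P1 to P3 differed between tissues was tested directly. Between muscle and bone marrow, Cd55 differed by -4.38 (SE 0.776, adjusted p = 0.00221) and Gsn by 3.76 (SE 0.64, adjusted p = 0.00157), and these were 2 of 8 members called, against 1.99% of all genes. Between periosteum and bone marrow the same 2 were called, Cd55 at -3.54 (SE 0.776, adjusted p = 0.0341) and Gsn at 3.05 (SE 0.64, adjusted p = 0.0267), against 0.537% of all genes. Both tests share the bone marrow libraries. Between muscle and periosteum none was called, against 0.249% of all genes, and none had an unadjusted p below 0.05. In bone marrow Cd55 was 6.27-fold higher in P3 than in P1 by means, while in muscle the P1 mean was 3.26-fold that of P3. The muscle calls held under each alternative tried, but those of periosteum did not. Cd55 was lost without the first or the third library of periosteum P1 or P3, the first or second of bone marrow P1, or the second or the third of bone marrow P3 (adjusted p up to 0.0993), and Gsn without the third library of periosteum P1, the second of periosteum P3, any of bone marrow P1, or the second or the third of bone marrow P3 (adjusted p up to 0.102).

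**Figure D3:**
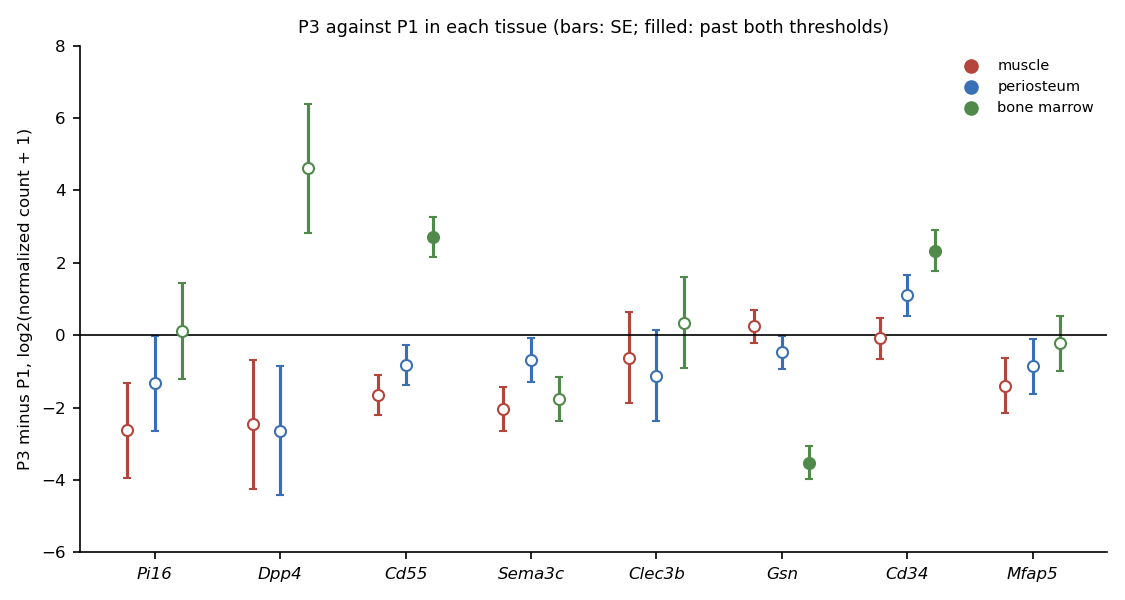
P3 minus P1 on the log2(normalized count + 1) scale for each gene, by tissue, with bars for the SE. Filled points passed both thresholds, which only Cd55 (2.72), Cd34 (2.33) and Gsn (-3.52) in bone marrow did, while Cd55 was below 0 in muscle and periosteum.

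Of 40 other genes of adventitial fibroblasts, muscle exceeded bone marrow for 34 (median 4.46 on the log2 scale) and periosteum exceeded bone marrow for 25 (median 2.42), with none called the other way, and muscle exceeded periosteum for 20 and was exceeded for 2 (median 2.19). Their summed level was nevertheless higher in periosteum P2 (194591 to 225502) than in muscle P2 (82273 to 119286), where the sum of the members was higher in muscle P2 (184392 to 325201 against 35123 to 175087). Most of the members' sum was Gsn, at 160928 to 294922 in muscle P2 and 28498 to 134334 in periosteum P2. Such sums follow the most abundant genes and not the number of genes that differ. Among the most abundant of the 40 genes, Igfbp6, which binds insulin-like growth factors, was 10.96 (SE 0.540) higher in muscle than in bone marrow, and Ly6c1 and Ly6a, the surface antigens of the Sca-1 family, 8.07 (SE 0.330) and 7.94 (SE 0.336). Fn1, fibronectin, was 1 of the 2 genes lower in muscle than in periosteum (-1.99, SE 0.319, adjusted p = 7.91e-05). Of the 30 genes of interstitial fibroblasts and fibro-adipogenic progenitors, muscle exceeded bone marrow for 23 and was below it for 2 (median 3.33), periosteum exceeded bone marrow for 16 and was below it for 5 (median 1.81), and muscle exceeded periosteum for 14 and was below it for none (median 1.504). The collagen Col3a1 (6.16, SE 0.355) and the proteoglycans Dcn (5.16, SE 0.268) and Lum (3.31, SE 0.279) were higher in muscle than in bone marrow, and Cxcl12, the marrow chemokine and Dpp4 substrate, was lower (-1.71, SE 0.272, adjusted p = 3.37e-05). The medians over all genes tested for these pairs were -0.10, -0.69 and 0.56. In muscle P3 against P1, the medians of both lists were -1.22 and 0.27, with none called in either, beside -1.53 for the 8 members and 0.07 for all genes.

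Of 35 relatives of the members by family, muscle exceeded bone marrow for 10 and was below it for 2, with a median of 0.92, and it exceeded periosteum for 5 and was below it for 5, against 21.7% and 20.4% of all genes called in either direction. Mfap4, an elastic fibre protein like Mfap5, was 9.03 (SE 0.476) above bone marrow in muscle, and Crispld2, a secreted CAP protein like Pi16, 5.90 (SE 0.481). Between muscle and periosteum neither was called (0.48 for Mfap4 and 0.73 for Crispld2). Clec11a, a lectin that acts as a bone growth factor, was lower in muscle than in periosteum (-2.44, SE 0.303, adjusted p = 3.12e-06). It was not called between muscle and bone marrow (0.50, SE 0.303, adjusted p = 0.243). Of 29 receptors, ligands and substrates of the members that passed the filter, 13 were called toward muscle and 5 toward bone marrow (median 1.47). Mmp2, a matrix protease, was 3.90 (SE 0.232) higher, and the actins targeted by gelsolin went both ways, with Actg1 at 1.92 (SE 0.138) and Actb at -2.23 (SE 0.161).

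**Figure D4:**
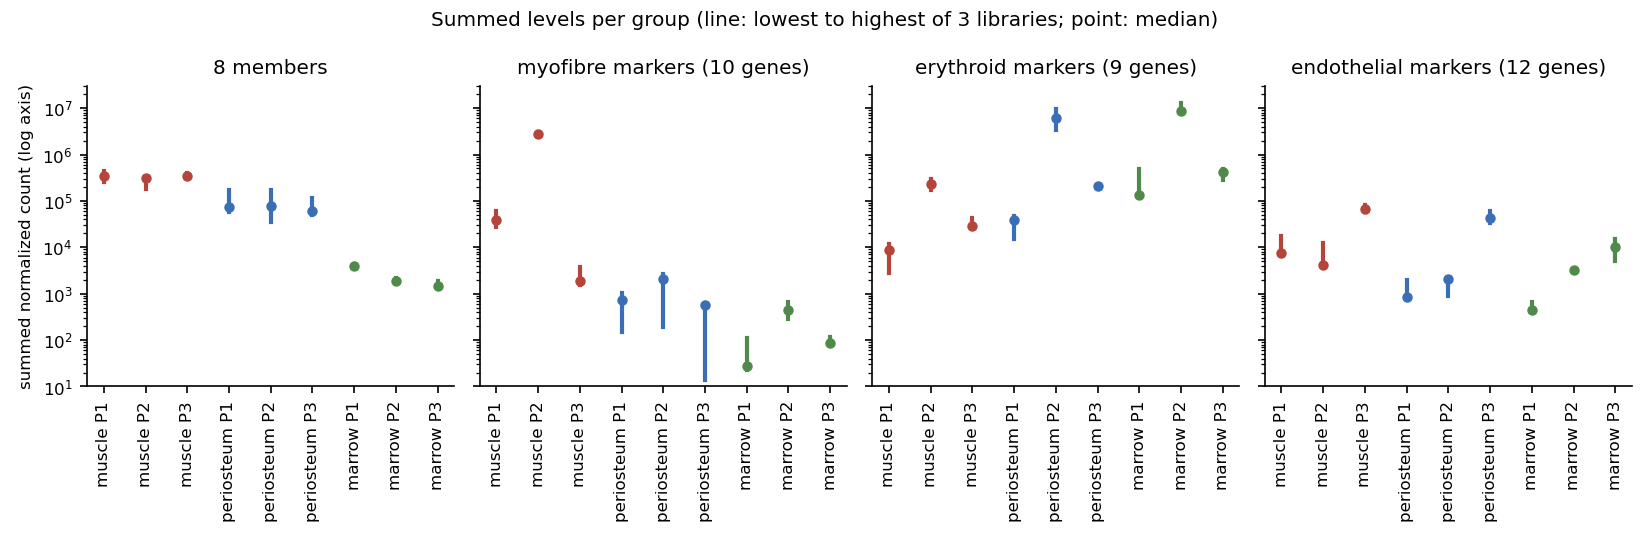
Summed normalized counts (log axis) of the 8 members and of 3 marker lists in the 9 groups, with lines from the lowest to the highest of 3 libraries and points at the median. The members' sum, most of it Gsn in muscle, periosteum and bone marrow P1, was 184392 to 449776 in muscle, 35123 to 176181 in periosteum and 1357 to 4327 in bone marrow, while myofibre RNA peaked in muscle P2, erythroid RNA in P2 of the bone tissues and endothelial RNA in P3.

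Over the 27 libraries, the members were compared with all genes by the Pearson correlation of log2(level + 1), given as a description, since the points share tissues and libraries. The 3 nearest genes of Mfap5 were Igfbp6 (r = 0.975), Fbln2 (0.975) and Tppp3 (0.973), those of Cd34 were Fbln2 (0.967), Tppp3 (0.956) and Ly6c1 (0.932), and those of Sema3c were Tppp3 (0.945), Lsp1 (0.941) and Myoc (0.934). Clec3b was nearest to Dpt (0.955), Col14a1 (0.952) and Penk (0.952), Gsn to Enpp2 (0.960), Aebp1 (0.951) and Col3a1 (0.949), and Pi16 to Col14a1 (0.931), Axl (0.924) and Ifi27l2a (0.921). Dpp4 and Cd55 had no neighbour as near, at Kcp (0.864), Stmn4 (0.795) and Tmeff2 (0.787) for Dpp4 and Pde4b (0.820), Adam33 (0.812) and Dnajb1 (0.788) for Cd55. Tppp3, a marker of tendon sheath cells, was thus among the 3 nearest genes of 3 members. Between the members themselves, r ranged from 0.446 (Gsn and Dpp4) to 0.951 (Cd34 and Mfap5).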

How the data were processed

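Bulk RNA was measured in 27 libraries made with SMART-Seq v4 and Nextera XT. Per the sources, the authors trimmed reads with Trim Galore, aligned them with STAR and normalized with DESeq2. The genome build, annotation, counting tool and strand setting are not given in the sources used here. The deposited values are normalized counts, a signal that is never negative. Low values step by gene-specific amounts, so whole reads could not be recovered and counting error is unknown.

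The 8 members and all gene lists were chosen with earlier results of these data known, so a pattern of theirs is no independent evidence. The values were analysed as log2(level + 1) in limma 3.58.1 (R 4.3.3) on 9 group means, with a mean-dependent trend in the prior variance, over 18442 genes with at least 10 in at least 3 libraries. Calls needed an adjusted p (Benjamini-Hochberg) below 0.05 and a log2 fold change beyond 1.5 in size. The fit was tested on simulated data. Named besides the members were the 3 genes most correlated with each member, and the most abundant genes of each list (other adventitial fibroblast genes, interstitial fibroblast and fibro-adipogenic progenitor genes, family relatives, partners and substrates). Marker lists of 11 other cell types were counted and summed. Gene positions came from GENCODE M21 (GRCm38) and promoters from RefSeq, where 6 of 8 members had an entry, not Clec3b and Mfap5. Transcripts were aligned with blastn 2.17.0. Alternatives were pseudocounts of 0.1 and 5, no filter, a mean of at least 50, a replicate block, the same total per library, quantile normalization, no trend, the groups compared alone and each library left out. Chosen after seeing the data were P1 and P3 only, and leaving out the first libraries of periosteum P1 and P2 together.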

Additional observations from a re-analysis of the deposited data

Results flagged for a closer look

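The step from P1 to P3 differed between tissues, by the test of the difference itself, for 2 of the 8 genes. For Cd55 it was -4.38 (SE 0.776, adjusted p = 0.00221 by limma) between muscle and bone marrow and -3.54 (SE 0.776, adjusted p = 0.0341) between periosteum and bone marrow on the log2 scale. For Gsn it was 3.76 (SE 0.64, adjusted p = 0.00157) and 3.05 (SE 0.64, adjusted p = 0.0267). Neither muscle call was lost in any of 37 alternatives, while the periosteum call of Cd55 was lost in 10 of them (adjusted p up to 0.0993) and that of Gsn in 11 (adjusted p up to 0.131). All 4 values rest on the same 6 libraries of bone marrow P1 and P3.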

How the results depend on the processing

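Counts of members called changed by over 1.5 times in 4 of 10 sets of comparisons. Muscle against periosteum had 4 calls and 2 from P1 and P3 only (4 to 6 with 1 library left out). The subpopulation pairs of muscle had 1 call, against 0 with a pseudocount of 0.1, 2 with the same total per library, 5 with quantile normalization, 7 with the groups compared alone and 0 to 2 with 1 library left out. Those of periosteum had 1 call, against 0 without a filter, 0 with the groups compared alone, 4 without both first libraries of P1 and P2, and 0 to 4 with 1 library left out. The tests of P3 against P1 between tissues had 4 calls, against 2 without a filter, 2 without a trend and 2 to 5 with 1 library left out. Of the other sets, members called numbered 8 (8 to 8 with 1 library left out), 6 (6 to 7), 12 (9 to 15), 17 (15 to 21), 14 (11 to 16) and 13 (13 to 14). Over 112 single values and all settings, 3983 of 4162 recomputed values kept their direction and side of the threshold, 104 lost the call, 71 gained one and 4 reversed. The reversals were Clec3b in periosteum P1 against P2 at -0.50 and Pi16 in P3 against P2 at -0.11, both without the second library of P2, and Dpp4 in P3 against P2 at 0.66 without the first library of P2 and at 0.66 without both first libraries. With 1 library left out these ranged from -0.50 to 3.47, from -0.11 to 4.36 and from -4.23 to 0.66. Same-numbered libraries shared no detectable deviation, at mean correlations of -0.059 to 0.050 over 36 pairs of groups. Whether they came from the same animals cannot be told from this. A replicate block gave 4, 8, 6, 1, 1, 12, 17, 13, 13 and 4 calls, the lost one being Dpp4 in muscle P2 against periosteum P2 (adjusted p = 0.0503). Of the 24 pairs of a member and 1 of its 3 nearest genes, 15 remained with a pseudocount of 0.1 and 15 with quantile normalization. The number of all genes called varied most in periosteum P3 against P2, from 3157 to 2 with the groups compared alone, P1 against P2, from 3521 to 104, P3 against P1, from 771 to 0, and muscle P3 against P1, from 86 to 766. The causes were not tested. The counting error of values near 0 in bone marrow is unknown, since no read counts were at hand.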
